A study of Mus musculus with 6 samples.

Results

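Genes of the endoplasmic reticulum (ER) that translocate, fold, glycosylate, export and degrade secretory proteins, or that sense stress in this compartment, were examined in human leukemic cells grown in mice. The genes were taken by name, with their subunit families and stress sensors, and 79 of the 13892 listed genes qualified. Cells came from NSG mice, an immunodeficient strain, in which acute myeloid leukemia (AML) had arisen from human hematopoietic stem cells given NPM1c by transduction. NPM1c is a mutant of nucleophosmin that lies in the cytoplasm. From the marrow of each of 3 moribund mice, each mouse from its own transduction, leukemic stem cells (LSC) were sorted as GFP+, CD33+ and CD123+, and bulk leukemic cells as GFP+ and CD33+. GFP stood in for NPM1c and all cells of both gates carried it, and the bulk gate left CD123 unstated, so bulk cells can include cells of the LSC phenotype. There were 3 LSC and 3 bulk libraries, 1 of each from every mouse, numbered by mouse. The ages of the mice are not stated in the labels used here. The listed symbols and the named build (hg19) are human, although the organism is labelled as the murine host.

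Proteins bound for secretion or for membranes are recognised as they leave the ribosome by the signal recognition particle, are handed to the SEC61 channel in the ER membrane, lose their signal peptide to signal peptidase and receive N-linked sugars from oligosaccharyltransferase. Lectin chaperones and disulfide isomerases fold them, COPII-coated vesicles carry them to the Golgi, and misfolded chains are pulled back to the cytosol for degradation. The sensors IRE1 (gene ERN1), PERK (gene EIF2AK3) and ATF6 report unfolded protein. IRE1 removes an intron from XBP1 mRNA, and the protein then made induces many genes of the same machinery. Cells that secrete heavily, such as plasma cells and plasmacytoid dendritic cells, are rich in ER, and in mice XBP1 is needed for both to develop normally.

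The deposited table held 10669560 to 14933494 reads per library, and 27.2% to 70.0% of these belonged to 10 MTRNR2L genes, which resemble mitochondrial ribosomal RNA. Bulk replicate 1 had the highest such share and the fewest other reads, 3423878, against 6132431 to 9571165 elsewhere. Levels are in CPM, reads scaled to the normalized library size, and 3 reads corresponded to 0.514 CPM in bulk replicate 1 and to 0.190 to 0.254 CPM in the other libraries. RNA of cell type markers also differed between LSC and bulk. All 16 plasmacytoid dendritic cell markers were higher in LSC, with a summed 2082 to 3431 CPM in LSC libraries and 133 to 339 CPM in bulk libraries, where SCT had no read and LILRA4 had 1. Of 8 plasma cell markers 2 were higher in LSC (IGJ and SLAMF7, which plasmacytoid dendritic cells also express), with sums of 686 to 1389 CPM in LSC and 120.0 to 452 CPM in bulk. In the other direction, 6 of 15 G2/M genes, 3 of 14 B cell markers and 3 of 10 erythroid markers were lower in LSC. With the mouse as a block, 4 plasma cell markers and 1 B cell marker (BLNK) were higher, and 11 G2/M genes, 9 B cell markers and 8 erythroid markers were lower. Sums of the G2/M, B cell and erythroid lists were 909 to 1587, 313 to 346 and 26.2 to 190 CPM in LSC, against 3759 to 7236, 650.0 to 2698 and 159 to 748 CPM in bulk. None of 14 granule markers passed in the limma test (4 lower at an unadjusted p under 0.05, 9 lower with the mouse as a block), with 989 to 3537 CPM in LSC and 4249.5 to 8839 CPM in bulk. The part of such cells in the results below was not tested. In sorted but mixed samples, fewer cells of a type and less RNA per cell cannot be told apart.

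Of the 79 genes, 7 were higher in LSC than in bulk and none was lower. These were DERL3, HERPUD1, ERN1, SEC61B, SEC11C, PDIA4 and SEC61A2, with 3.58-fold to 21.6-fold more RNA in LSC. The test was limma across 13755 genes without the mouse, and the threshold was a Benjamini-Hochberg adjusted p of 0.05. All 79 genes were among those tested, so no member was lost to the filter on low values. The share higher was 8.86% of the 79 genes, against 2.71% of all genes tested, and the share lower was 0 of 79, against 1.33%. At an unadjusted p under 0.05, 19 were higher (24.1%, against 10.2% of all genes) and none lower (against 10.1%). With the mouse as a block, 16 were higher (20.3%, against 8.25% of all genes) and again none was lower (against 7.71%). With voom on reads recovered from the table and the same block, 19 were higher (24.1%, against 8.84%) and 1, CALR, was lower (against 8.85%). The median log2 change over the 79 genes was 0.43, against -0.00364 over all genes tested, and 57 genes had a positive change and 22 a negative one. LSC and bulk libraries did not overlap for 24 genes, all higher in LSC (30.4%, against 13.2% of all genes), while 0 of 79 stood wholly below bulk (against 11.9%). In each of the 3 mice 40 genes were higher in LSC and 6 lower, where 27.3% and 25.8% of all genes were so.

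The 9 genes called only with the block were XBP1, SEC61G, SSR4, SPCS1, SPCS2, SEC11A, SRPR, SEC13 and SRP14-AS1. Without mouse 1 the blocked fit called 7 genes higher, the same 7 as the unblocked test. It called 11 without mouse 2, where SEC61G, SPCS1, SRPR and SRP14-AS1 joined the 7, and 20 without mouse 3. Shares over all genes are not given here for these fits on 2 mice, so their counts cannot be compared with each other. The call for PDIA4 was lost without LSC replicate 1, 2 or 3 or bulk replicate 1 (adjusted p = 0.0646 to 0.0997, limma). That for SEC61A2 was lost without any of these or bulk replicate 2 (0.0621 to 0.120, limma). The other 5 calls held when any single library was left out. Unblocked and with both libraries of mouse 1 left out, none of the 79 passed in limma, and without mouse 2 only DERL3 and HERPUD1 passed, with 2 mice per group in these fits. Calls of the unblocked fit without mouse 3 are not given here. Over all 24 alternatives described at the end, PDIA4 and SEC61A2 each lost the call in 8.

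**Figure D1:**
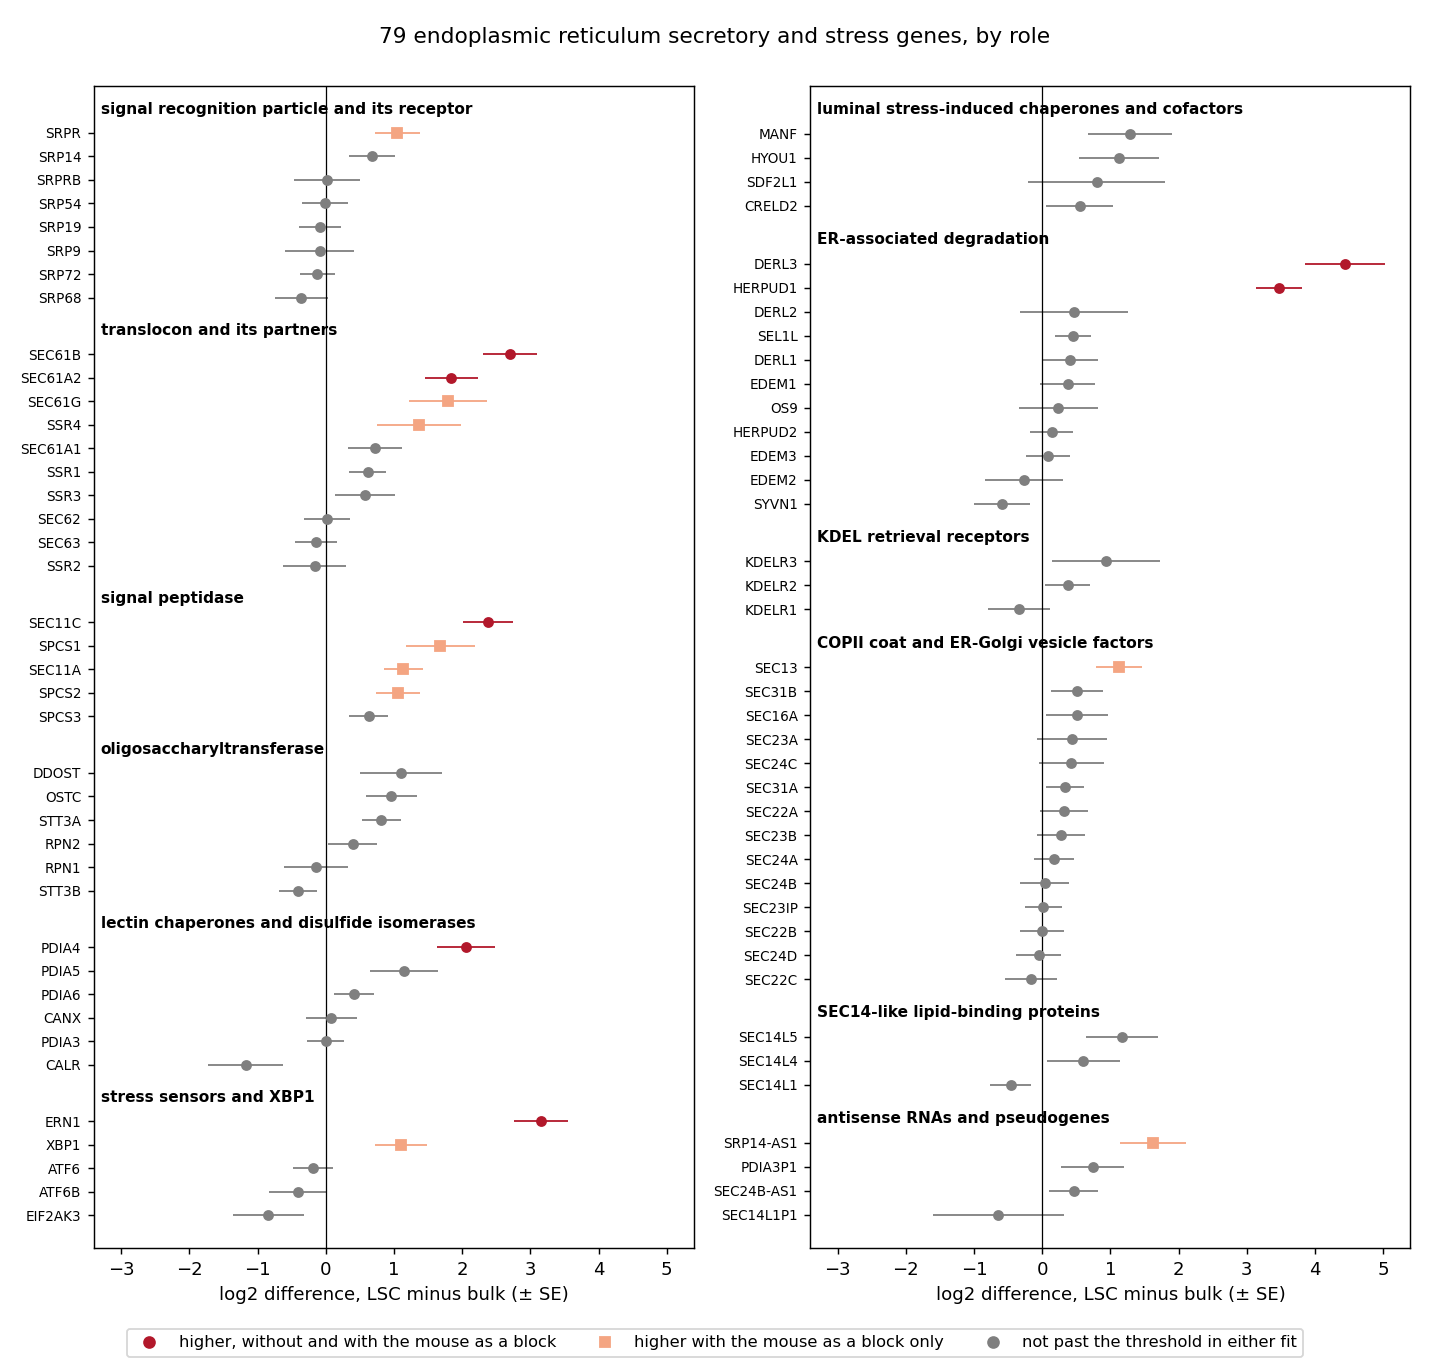
Log2 difference in level, LSC minus bulk, with its standard error, for each of the 79 genes, grouped by role. Red circles are the 7 genes past the threshold without and with the mouse as a block, orange squares the 9 past it with the block only, and grey circles the rest. DERL3, HERPUD1 and ERN1 stand farthest to the right, and CALR farthest to the left.

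The signal recognition particle binds signal peptides on ribosomes, and its receptor docks the complex on the ER membrane. Of 8 genes none passed the unblocked test (1 higher at an unadjusted p under 0.05), 1 passed with the block, and the median log2 change was -0.05. For this and the later roles, the shares of all genes were 2.71% higher without the block, 8.25% with it and 10.2% at an unadjusted p under 0.05. The gene that passed with the block was SRPR, the alpha subunit of the receptor. It had 115, 55.7 and 80.5 CPM in LSC replicates 1, 2 and 3, against 39.7, 43.1 and 33.8 CPM in bulk replicates 1, 2 and 3. Every LSC library lay above every bulk library, but mouse 2 differed by only 0.37 on the log2 scale, against 1.53 and 1.25 in mice 1 and 3. The log2 change was 1.05 (SE 0.33, limma adjusted p = 0.118, 0.0322 with the block). SRPRB, the membrane-anchored beta subunit of the same receptor, had a log2 change of 0.02 with a 95% interval of -1.07 to 1.10. The particle's own proteins SRP9, SRP19, SRP54, SRP68 and SRP72 had changes between -0.36 and -0.01, with adjusted p of 0.639 or more. SRP14, which with SRP9 forms the Alu-binding end of the particle, had a change of 0.67 (adjusted p = 0.301).

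The SEC61 channel held 2 of the 7 genes. SEC61B, its small tail-anchored beta subunit, had 43.3, 21.5 and 30.4 CPM in LSC replicates 1, 2 and 3, against 5.50, 3.75 and 5.01 CPM in bulk replicates 1, 2 and 3. The lowest LSC library was well above the highest bulk library, and the mice gave similar differences, between 2.52 and 2.98 on the log2 scale. The fitted change was 2.70 (SE 0.40, limma adjusted p = 0.00752), a 6.50-fold higher level in LSC. SEC61A2, a second form of the pore-forming alpha subunit, had 81.7, 81.7 and 103 CPM in LSC, against 16.5, 21.0 and 43.0 CPM in bulk. Groups did not overlap, and bulk replicate 3 was the highest of the bulk libraries. The fitted difference was 1.84 (SE 0.38, limma adjusted p = 0.0330). SEC61A1, the closely similar other alpha subunit, had 25.1, 35.7 and 34.2 CPM in LSC and 16.5, 31.9 and 13.1 CPM in bulk, with overlapping groups and a change of 0.72 (SE 0.40, adjusted p = 0.344). Reads of these paralogs can be divided between them, and their summed level was 107, 117 and 137 CPM in LSC and 32.9, 53.0 and 56.1 CPM in bulk.

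SEC61G, the gamma subunit, had 30.0, 9.97 and 30.5 CPM in LSC replicates 1, 2 and 3, against 8.41, 8.15 and 3.22 CPM in bulk replicates 1, 2 and 3. LSC replicate 2 was close to the bulk libraries, and the other LSC libraries were higher. The change of 1.79 (SE 0.57) passed only with the block (limma adjusted p = 0.121 without, 0.0449 with it). Of the translocon-associated SSR proteins, SSR4 had 11.99, 15.9 and 5.64 CPM in LSC and 4.13, 7.81 and 1.94 CPM in bulk. Groups overlapped and both libraries of mouse 3 were low, yet LSC was the higher in each mouse by 1.02 to 1.54 on the log2 scale. SSR4 passed with the block (limma adjusted p = 0.0403) and not without it (0.253). SSR1 and SSR3 had changes of 0.61 and 0.57, and SSR2 of -0.16, none of which passed in either limma fit on the deposited values. SSR1 passed as higher in voom with the block (adjusted p = 0.0370). SEC62 and SEC63, which serve translocation after synthesis, had changes of 0.02 (95% interval -0.74 to 0.78) and -0.15 (-0.85 to 0.56). Over the 10 translocon genes the median change was 0.67.

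Signal peptidase was the complex in which every gene stood higher in each LSC library than in any bulk library. This held for 5 of 5 genes, and the median log2 change was 1.14. One of them passed without the block and 4 with it. Of all genes tested, 13.2% stood wholly above bulk in LSC, and 2.71% and 8.25% were higher without and with the block. SEC11C, one of the alternative catalytic subunits, had 26.0, 20.0 and 24.8 CPM in LSC replicates 1, 2 and 3, against 3.62, 5.36 and 4.69 CPM in bulk replicates 1, 2 and 3. The groups lay far apart and the spread within each was small. Its change was 2.38 (SE 0.37, limma adjusted p = 0.00944), 5.22-fold.

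The other catalytic subunit, SEC11A, had 69.5, 76.4 and 76.4 CPM in LSC and 31.0, 42.9 and 28.7 CPM in bulk. Its change of 1.14 (SE 0.29) missed the threshold without the block (limma adjusted p = 0.0633) and passed with it (0.0133). SEC11A and SEC11C are similar in sequence, and their summed level was 95.5, 96.4 and 101 CPM in LSC and 34.6, 48.2 and 33.4 CPM in bulk. Accessory subunits differed less evenly. SPCS1 had 31.5, 31.7 and 80.2 CPM in LSC and 7.21, 16.5 and 20.4 CPM in bulk, so LSC replicate 3 was far above the other LSC libraries. Its change was 1.68 (SE 0.51, limma adjusted p = 0.106, 0.00887 with the block). SPCS2 had 61.7, 36.2 and 60.6 CPM in LSC and 24.8, 22.8 and 26.5 CPM in bulk (change 1.06, adjusted p = 0.106, 0.0236 with the block). SPCS3 had the smallest difference of the complex, 0.63 (SE 0.28, adjusted p = 0.252), and did not pass in either limma fit.

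**Figure D2:**
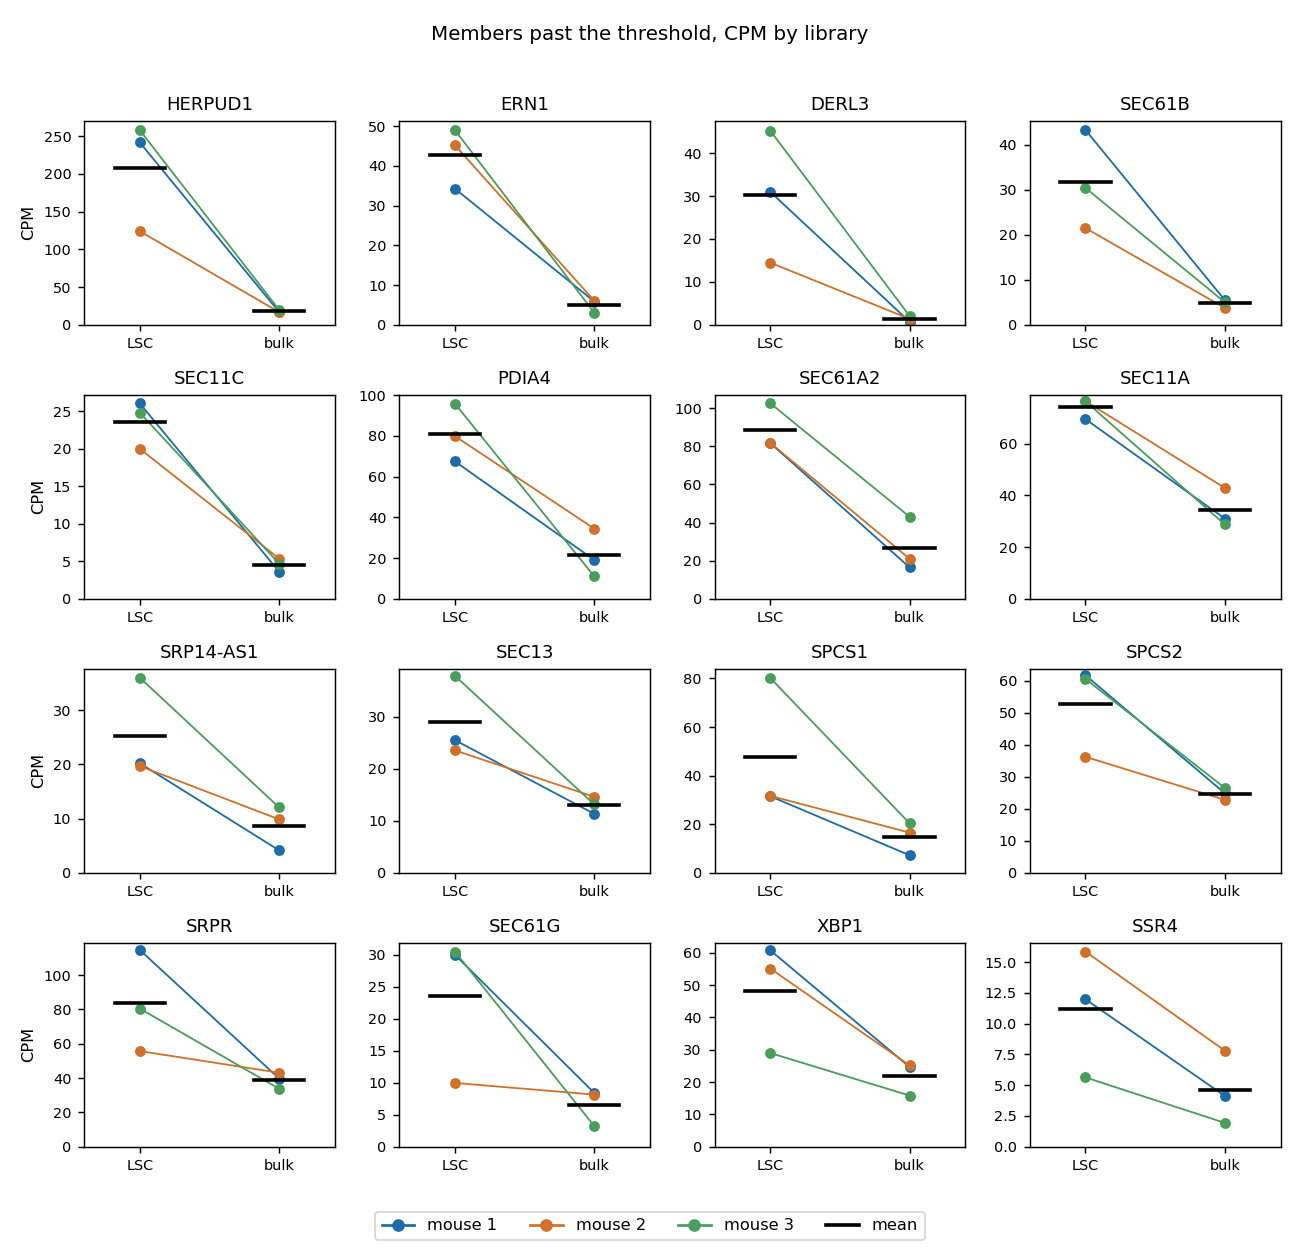
CPM in each library for the 16 genes past the threshold with the mouse as a block, LSC to the left and bulk to the right, with lines joining the libraries of a mouse and black bars for the means (n = 3 each). Every line falls towards bulk. The lines of mouse 2 are nearly flat for SEC61G and SRPR, and both mouse 3 values are the lowest for SSR4.

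Oligosaccharyltransferase transfers the sugar chain to asparagine. None of its 6 genes passed in limma without or with the block (2 higher at an unadjusted p under 0.05), and the median change was 0.60. In voom with the block OSTC and STT3A passed as higher (adjusted p = 0.0414 and 0.0385). Its alternative catalytic subunits had changes of unlike sign. STT3A, which acts on chains entering through the channel, had 101, 75.0 and 116 CPM in LSC replicates 1, 2 and 3, against 57.0, 59.2 and 47.7 CPM in bulk replicates 1, 2 and 3. STT3B, which acts on sites missed by STT3A, had 43.9, 51.3 and 39.5 CPM in LSC and 63.5, 63.6 and 51.3 CPM in bulk. STT3A libraries did not overlap between the populations, and STT3B was lower in LSC in each mouse, by 0.31 to 0.53 on the log2 scale. The log2 changes were 0.81 (95% interval 0.17 to 1.45, limma adjusted p = 0.154, 0.0516 with the block) and -0.41 (-1.03 to 0.22, adjusted p = 0.445). Whether the 2 changes differ was not tested. DDOST, OSTC, RPN2 and RPN1, the remaining subunits, had changes of 1.10, 0.96, 0.39 and -0.14. None of 5 further subunits outside the 79 passed in limma without or with the block (0 at an unadjusted p under 0.05), with a median of 0.71.

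Among folding enzymes 1 of 6 genes was higher, with 2 at an unadjusted p under 0.05, and a median change of 0.25. PDIA4, a disulfide isomerase of the ER lumen, had 67.4, 79.8 and 95.8 CPM in LSC replicates 1, 2 and 3, against 19.0, 34.4 and 10.96 CPM in bulk replicates 1, 2 and 3. All LSC libraries were higher, and the difference was widest in mouse 3, at 3.13 on the log2 scale against 1.83 and 1.21 in mice 1 and 2. The change was 2.06 (SE 0.42, limma adjusted p = 0.0309), 4.16-fold. PDIA5 did not overlap between populations (change 1.14, adjusted p = 0.237), PDIA6 had a change of 0.41, and PDIA3, which works with the lectin chaperones, had one of -0.00102 with a 95% interval of -0.60 to 0.60.

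The lectin chaperones calnexin (CANX) and calreticulin (CALR) bind glucosylated chains. CANX had 531, 537 and 499 CPM in LSC replicates 1, 2 and 3 and 584, 761 and 269.7 CPM in bulk replicates 1, 2 and 3. Its log2 change was 0.08 (95% interval -0.77 to 0.93). CALR, named after its values were seen, had 71.0, 60.8 and 50.6 CPM in LSC and 162, 295 and 52.4 CPM in bulk. Bulk replicates 1 and 2 were far above all other libraries, while bulk replicate 3 lay within the range of LSC. The change of -1.17 (SE 0.55) did not pass (limma adjusted p = 0.266, 0.0605 with the block). It passed without bulk replicate 3, at -1.86 (limma adjusted p = 0.0278), and in the blocked fit on mice 1 and 2, at -1.74 (limma adjusted p = 9.08e-10). The latter fit had 4 libraries, and its p-value leans on variance pooled across genes.

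Of the stress sensors and XBP1, 1 of 5 genes was higher without the block and 2 with it. The median change was -0.19, with 2 positive and 3 negative changes. ERN1, which encodes IRE1 alpha, had 34.2, 45.2 and 49.0 CPM in LSC replicates 1, 2 and 3, against 5.84, 6.03 and 3.03 CPM in bulk replicates 1, 2 and 3. Every LSC library was several times above every bulk library. The log2 change was 3.16 (SE 0.40, limma adjusted p = 0.00346), 8.92-fold. XBP1, the transcription factor whose mRNA IRE1 splices, had 60.8, 55.1 and 29.0 CPM in LSC, against 24.7, 25.2 and 15.8 CPM in bulk. Groups did not overlap, both libraries of mouse 3 were the lowest of their population, and the differences within mice were 1.30, 1.13 and 0.87 on the log2 scale. Its change was 1.10 (SE 0.38), which did not pass without the block (limma adjusted p = 0.149) and passed with it (0.0186). Values per gene do not separate the spliced from the unspliced form of XBP1.

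The other sensors did not pass in either limma fit. EIF2AK3, which encodes PERK, had 21.2, 9.02 and 9.72 CPM in LSC replicates 1, 2 and 3 and 20.1, 12.8 and 41.7 CPM in bulk replicates 1, 2 and 3. Bulk replicate 3 was well above the other libraries, and the groups overlapped. The log2 change was -0.84 (95% interval -2.01 to 0.32, limma adjusted p = 0.394). ATF6 and its relative ATF6B, membrane-bound factors released by cleavage in the Golgi, had changes of -0.19 (-0.85 to 0.48) and -0.40 (-1.36 to 0.56), with adjusted p of 0.760 and 0.635. The upper ends of all 3 intervals lie below the lower end of that for ERN1, 2.27, though the differences between the sensors were not tested.

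Some stress-pathway genes outside the 79 were read beside the sensors. DNAJB9, an ER co-chaperone and a known target of XBP1, had 43.7, 17.6 and 39.8 CPM in LSC replicates 1, 2 and 3, against 8.41, 5.69 and 3.47 CPM in bulk replicates 1, 2 and 3. No bulk library reached the lowest LSC library. Its change was 2.51 (SE 0.49, limma adjusted p = 0.0251), and that call was lost without LSC replicate 1 or 3 or bulk replicate 2 or 3 (0.0517 to 0.0868). Over the 24 alternatives described at the end, DNAJB9 lost its call in 8 (highest adjusted p = 0.172, limma or voom). HSPA5, the main ER chaperone BiP, had 289, 212 and 209.7 CPM in LSC and 383, 366 and 142 CPM in bulk. LSC was lower in mice 1 and 2 and higher in mouse 3, and the change was -0.21 (95% interval -1.11 to 0.69). HSP90B1, the ER form of HSP90, had a change of 0.47 (-0.25 to 1.19). In the list of ER chaperones and folding enzymes outside the 79, 1 of 22 genes was higher and none lower (3 higher and 2 lower both at an unadjusted p under 0.05 and in the blocked fit). The median of the 22 was 0.30. Over all genes tested, 2.71% were higher and 1.33% lower. These shares were 10.2% and 10.1% at an unadjusted p under 0.05 and 8.25% and 7.71% in the blocked fit. The other genes higher with the block were DNAJB11 and TXNDC5, with changes of 1.11 and 2.99. Groups overlapped for TXNDC5 (SE 0.90, limma adjusted p = 0.104 without the block, 0.0237 with it). The 2 genes lower with the block were SIL1 and UGGT2, with changes of -2.33 and -1.86 (limma adjusted p = 0.0396 and 0.0206 with it). For both, every LSC library lay below every bulk library, and SIL1 had only 4 reads in LSC replicate 3.

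None of 7 tested genes of the branch from PERK to ATF4 passed without the block in limma (1 lower at an unadjusted p under 0.05), and CEBPB was lower with it. ATF4, the factor made when PERK slows translation, had a log2 change of 0.03 (95% interval -0.85 to 0.91). DDIT3, the factor CHOP, had one of 0.39 (-0.70 to 1.48), and PPP1R15A, which restores translation, one of 1.05 (-0.34 to 2.45). ATF4 is controlled largely in translation, which these values do not show.

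**Figure D3:**
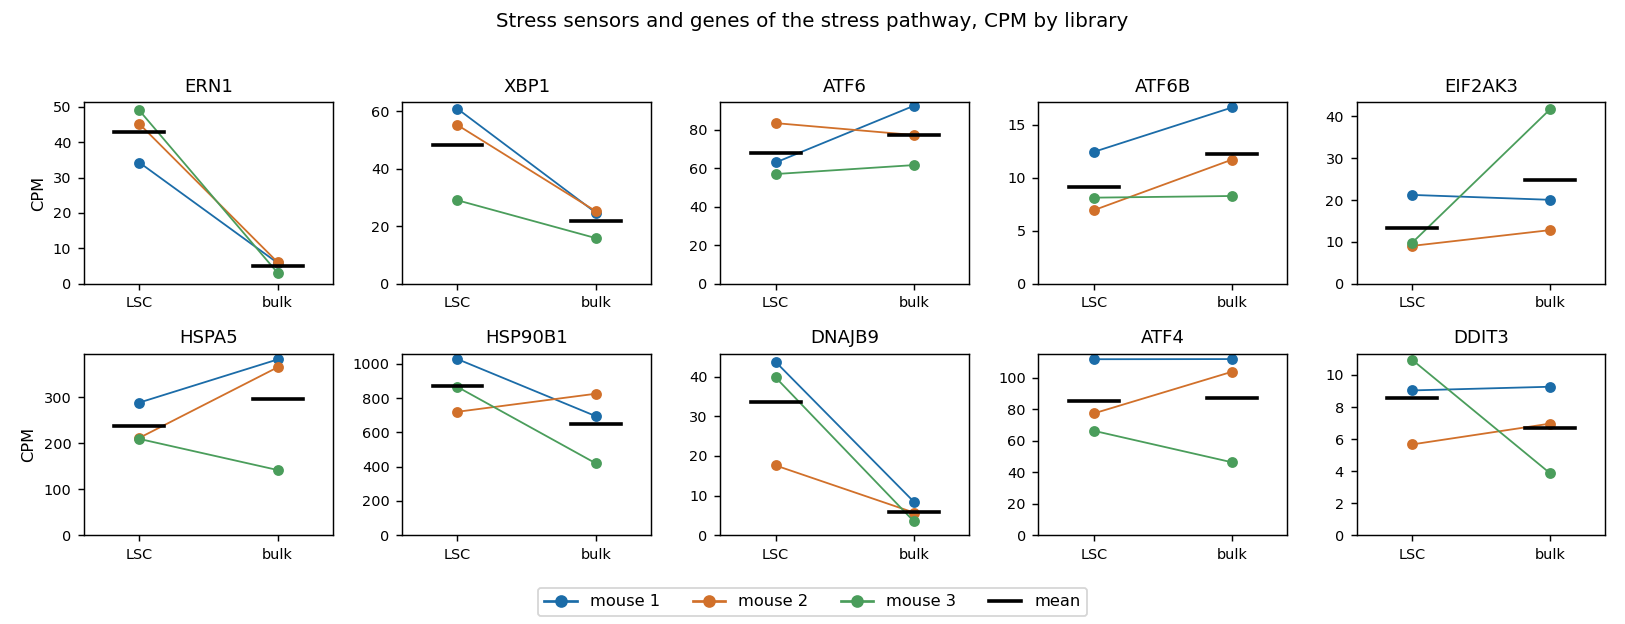
CPM in each library for the stress sensors ERN1, ATF6, ATF6B and EIF2AK3, for XBP1 and for 5 genes of the stress pathway outside the 79, LSC to the left and bulk to the right, with lines joining libraries of a mouse and black bars for the means (n = 3 each). ERN1, XBP1 and DNAJB9 are higher in LSC in all 3 mice, and ATF6B is lower in all 3. ATF6, EIF2AK3, HSPA5, HSP90B1, ATF4 and DDIT3 change direction between mice.

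Degradation of ER proteins held the largest differences, in 2 of 11 genes. DERL3, a derlin of the retrotranslocation channel, had 31.0, 14.5 and 45.2 CPM in LSC replicates 1, 2 and 3, against 0.705, 1.37 and 2.07 CPM in bulk replicates 1, 2 and 3. Bulk libraries held only 4, 16 and 32 reads of it, and each LSC library was several times above them all. The fitted log2 difference was 4.44 (SE 0.59, limma adjusted p = 0.00468), 21.6-fold. HERPUD1, a stress-induced membrane protein that organises the degradation complex, had 242, 124 and 258 CPM in LSC, against 17.0, 16.8 and 19.8 CPM in bulk. Bulk libraries were nearly alike, and LSC replicate 2 was lower than the other LSC libraries. The change was 3.47 (SE 0.34, limma adjusted p = 0.00104), 11.1-fold.

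The relatives of these genes did not follow them past the threshold. DERL1 and DERL2 had changes of 0.41 (95% interval -0.52 to 1.33) and 0.47 (-1.32 to 2.25), and HERPUD2 of 0.14 (-0.57 to 0.85). SEL1L, the scaffold of the ubiquitin ligase complex, had 125, 111 and 92.4 CPM in LSC replicates 1, 2 and 3 and 77.9, 87.2 and 72.9 CPM in bulk replicates 1, 2 and 3. Its libraries did not overlap, but the change was only 0.46 (SE 0.26, adjusted p = 0.362). SYVN1, the ligase itself, had 21.2, 26.7 and 15.8 CPM in LSC and 19.7, 30.7 and 51.1 CPM in bulk, a change of -0.59 (adjusted p = 0.452) in which bulk replicate 3 was the highest. The mannosidase-like EDEM1, EDEM2 and EDEM3 and the lectin OS9, which pick out chains for degradation, had changes between -0.27 and 0.37. The median over the 11 genes was 0.37.

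In the list of other ER membrane and degradation genes, 1 of 25 was higher and none lower (6 higher and 1 lower at an unadjusted p under 0.05, 4 and 1 with the block). It was VIMP, a selenoprotein that joins derlins to the ATPase p97, with 82.3, 46.5 and 51.5 CPM in LSC replicates 1, 2 and 3 and 6.35, 10.6 and 4.82 CPM in bulk replicates 1, 2 and 3. Groups were far apart, with a change of 3.08 (SE 0.40, limma adjusted p = 0.00442). UBE2J1, a ubiquitin-conjugating enzyme of the ER membrane, had 370.2, 206 and 352 CPM in LSC and 135, 112 and 144 CPM in bulk. Its change of 1.21 missed the threshold without the block (limma adjusted p = 0.0633) and passed with it (0.00560). UBE2J1 passed in 10 of the 24 alternatives described at the end, some of them without the block. Other genes called with the block were UBE2G2 and CREB3L2, higher, and MBTPS2, lower. Over all genes tested, 2.71% were higher and 1.33% lower without the block, and 8.25% and 7.71% with it. At an unadjusted p under 0.05 these shares were 10.2% and 10.1%.

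The luminal chaperones and cofactors MANF, HYOU1, SDF2L1 and CRELD2 are induced together by ER stress. None of the 4 passed in limma without or with the block (0 at an unadjusted p under 0.05), and their changes were 1.28, 1.12, 0.80 and 0.55. MANF had 10.1, 12.4 and 19.9 CPM in LSC replicates 1, 2 and 3 and 9.61, 8.66 and 2.07 CPM in bulk replicates 1, 2 and 3. SDF2L1 had 11.8, 4.96 and 6.88 CPM in LSC and 13.4, 8.66 and 0.659 CPM in bulk. Bulk replicate 3 was the lowest of all 6 libraries for each of the 4 genes. Their median difference within a mouse was 2.78 in mouse 3, against 0.04 and 0.49 in mice 1 and 2. Without bulk replicate 3 the change of SDF2L1 was -0.54.

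Bulk replicate 3 was more widely the low library. It had the lowest value of the 6 libraries for 31 of the 79 genes (39.2%), against 2065 of all 13755 genes tested (15%). It had the highest for 4 (5.06%, against 18.1%). It was the lowest for 5 of 6 oligosaccharyltransferase genes, 4 of 6 folding genes and 5 of 11 degradation genes. Other roles had it less often as the lowest, with 4 of 10 translocon, 4 of 14 COPII and vesicle, and 1 of 5 signal peptidase genes. It was the lowest for 1 of 8 signal recognition particle genes and for 0 of 3 KDEL receptor and 0 of 3 lipid-binding SEC14L genes. It also had the highest sums of B cell and of G2 and M phase markers, 2698 and 7236 CPM, against 650.0 to 691 and 3759 to 5183 CPM in the other bulk libraries. Its sums of erythroid and granule markers were the lowest of the bulk libraries, 159 and 4249.5 CPM, against 616 to 748 and 5047 to 8839 CPM. The part of these cells in the low values was not tested. Without bulk replicate 3, 7 genes were higher and 1, CALR, was lower, and the median change over the 79 genes was 0.28. The shares over all genes in that fit are not given here.

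**Figure D4:**
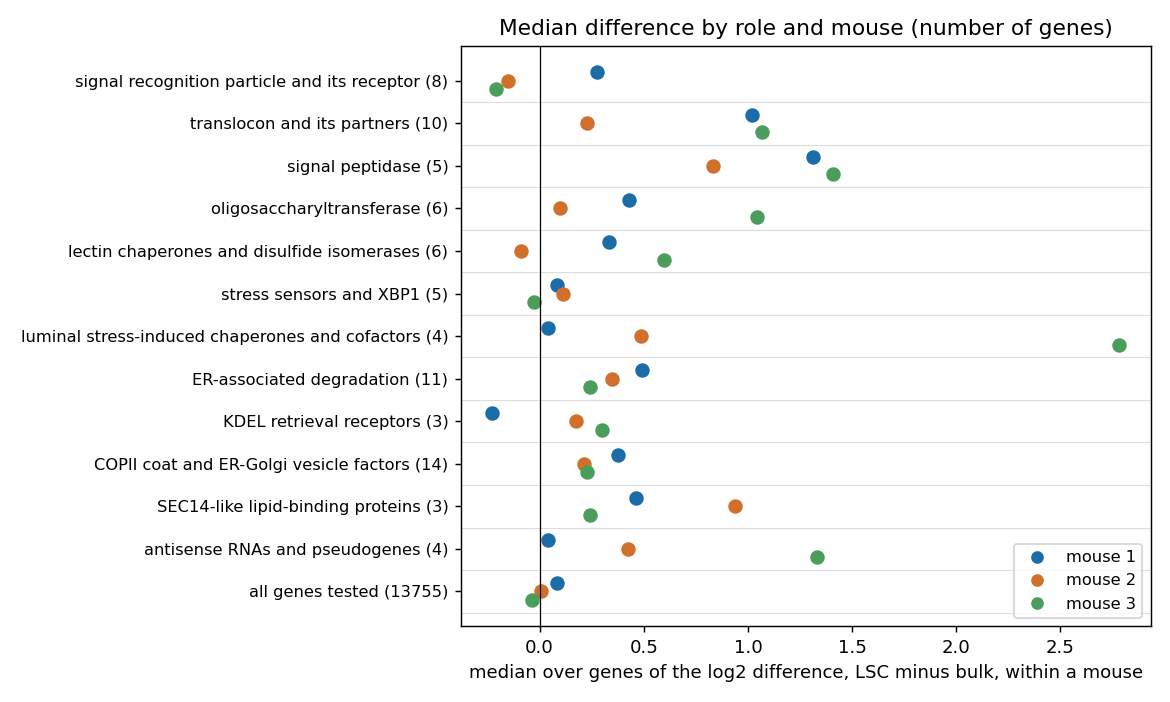
Median over the genes of each role of the log2 difference between the LSC and the bulk library of a mouse, with the number of genes in brackets and all genes tested in the last line. Signal peptidase lies at 0.83 to 1.41 in all 3 mice, the luminal chaperones lie apart in mouse 3 at 2.78, and all genes tested lie at -0.03 to 0.09.

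KDEL receptors return ER residents from the Golgi, and none of the 3 passed in limma without or with the block (0 at an unadjusted p under 0.05). KDELR3 and KDELR1 had the largest and the smallest test statistic, with changes of 0.94 (95% interval -0.84 to 2.71) and -0.34 (-1.36 to 0.68). KDELR3 had 2.53, 6.55 and 2.35 CPM in LSC replicates 1, 2 and 3 and 4.13, 0.697 and 1.94 CPM in bulk replicates 1, 2 and 3, with a difference of 3.23 on the log2 scale in mouse 2, and without mouse 2 the change was -0.21.

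Of 14 genes for the COPII coat and for vesicles between ER and Golgi, none passed in limma without the block (1 higher at an unadjusted p under 0.05) and 1 with it. It was SEC13, a coat protein of the outer cage that also belongs to the nuclear pore. SEC13 had 25.5, 23.5 and 37.9 CPM in LSC replicates 1, 2 and 3, against 11.3, 14.6 and 13.1 CPM in bulk replicates 1, 2 and 3. Groups did not overlap, and the change was 1.13 (SE 0.34, limma adjusted p = 0.104, 0.0314 with the block). Its partners in the outer cage, SEC31A and SEC31B, had changes of 0.33 (95% interval -0.28 to 0.95) and 0.51 (-0.34 to 1.37). The cargo-binding SEC24A, SEC24B, SEC24C and SEC24D, the inner-coat SEC23A and SEC23B, the SEC23-binding SEC23IP, the organiser SEC16A and the SEC22 proteins had changes between -0.16 and 0.51. The median of the 14 was 0.30. Over all genes tested, 8.25% were higher with the block and 10.2% at an unadjusted p under 0.05 (limma).

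The name rule also took genes outside the secretory path. The lipid-binding SEC14L5, SEC14L4 and SEC14L1 had changes of 1.16, 0.60 and -0.46, and none of the 3 passed in limma without or with the block (0 at an unadjusted p under 0.05). SRP14-AS1, an antisense RNA at SRP14, had 20.2, 19.7 and 36.0 CPM in LSC replicates 1, 2 and 3, against 4.13, 9.84 and 12.05 CPM in bulk replicates 1, 2 and 3. Groups did not overlap, and its change of 1.62 passed with the block (limma adjusted p = 0.103 without, 0.0149 with it). Whether counting used strand is not stated, so its reads cannot be told from those of SRP14. SEC24B-AS1, at SEC24B, and the pseudogenes PDIA3P1 and SEC14L1P1 had changes of 0.46, 0.74 and -0.65, none of which passed in either limma fit, and pseudogene reads can be shared with the parent genes.

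In the authors' deposited table, whose fold change is coded bulk minus LSC, 11 of the 79 genes had an unadjusted p under 0.05, all of them higher in LSC (13.9%). Over all genes of the authors' deposited table, 6.2% were higher in LSC and 6.21% lower at that p. The authors' deposited table gave its lowest false discovery rate among the 79 genes, 0.0910, to DERL3 and HERPUD1, with log2 changes of -4.42 and -3.48. For ERN1 the authors' deposited table gave -3.16 at a rate of 0.103. That table comes from the same libraries and is not separate support.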

How the data were processed

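Per the labels' protocols, libraries were made from RNA of sorted LSC and bulk cells after NuGEN Ovation amplification. RSEM, Bowtie2, edgeR and hg19 are named, with no version or role, per the submitters' processing notes. Each library's column holds log2 CPM with a small prior, as deposited by the authors. The deposited table also holds the authors' log2 fold change and p-value, a false discovery rate (q-value) and a score, the likelihood ratio, per the file headers. All 6 columns share a floor of 0.0197 CPM and rise in whole steps, which gave reads per gene that were whole within 0.1 read for 100% of values below 500 reads.

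Of 13892 genes, the 13755 that reached 1 CPM in 3 or more libraries entered two-sided limma tests (version 3.58.1, R 4.3.3; eBayes with a mean trend) of the deposited log2 values, Benjamini-Hochberg adjusted over all of them. Folds and changes are on this log2 scale, and CPM values include the prior. By the labels a number marks a mouse and so pairs the samples, and deviations from group means within a mouse correlated at 0.327, 0.350 and 0.302. Blocked values are printed beside members whose call changes and as counts for lists. Unblocked p-values treat the 6 libraries as independent, although those of a mouse deviated together, and so mix spread between and within mice. Blocked p-values measure the spread of the differences within mice, over 3 mice or fewer where a mouse was left out. In the limma fits eBayes pools variance across genes, so p-values from few libraries lean on that pooling. Gene names to describe were those past the threshold in either fit, the sensors, 6 stress-pathway genes and, for other roles, those with the largest and smallest statistic. Further names, including the remaining genes of each role, were added to account for all 79, and VIMP, UBE2J1 and other called genes of the context lists were named after their values were seen. Members and lists were chosen with earlier results of these data known. Code was tested on simulated reads. Amplified reads are not independent molecules, and intervals on counts would cover counting error only. No coordinates or sequences are given, since the reference at hand is of mouse.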

Additional observations from a re-analysis of the deposited data

How the results depend on the processing

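The counts of 7 genes higher and 0 lower (limma without the block) were compared under 24 alternatives, of which voom on recovered reads with the mouse as a block, and the block with a mouse left out, were chosen after seeing the data. Pseudocounts of 1 and 5 CPM, no filter or one of 5 CPM, upper-quartile, quantile or MTRNR2L-free scaling, array weights and voom without the block each called the same 7 higher and none lower, and eBayes without trend called 5 of them. With the pairing by mouse as a block 16 were higher and 0 lower, and with voom and the block 19 were higher and 1 (CALR) lower. Leaving out libraries or mice gave 0 to 20 higher and 0 to 1 lower, with 11 and 20 higher in the blocked fit without mouse 2 and 3. Shares over all genes in these fits are not given here, so the counts have no background beside them. Of the 79 genes, 25 changed sign in some alternative. ATF4 was -0.0179 under upper-quartile rescaling and -0.14 with array weights, -0.38 to 0.26 with 1 library left out and -0.21 without mouse 3. DDIT3 was -0.17 and SDF2L1 -0.49 without mouse 3, and SDF2L1 was -0.54 to 1.63 with 1 library left out. HSPA5 was -0.68 to 0.0396 with 1 library left out (positive without bulk replicate 1 or 2) and 0.0785 without mouse 2, where KDELR1 was 0.13 and KDELR3 -0.21. In the blocked fit without mouse 3, HSPA5 passed as lower (-0.60, limma adjusted p = 0.0244). Scaling moved the median of all genes by less than 0.1 on the log2 scale. The causes were not tested. Depth limits DERL3, DERL2, SEC14L1P1, KDELR3 and SDF2L1, which had 4, 5, 7, 8 and 10 reads in the library with the fewest.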
